A study of Mus musculus with 12 samples.

Results

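Dendritic cells and B cells isolated from the spleens of NOD.Idd2 mice were compared across the autosomal genes, with 3 poly(A)-selected RNA libraries of each cell type and 6 of the 12 libraries of the series. Of 28188 genes in the count table, 26994 lay on autosomes and 15066 of these passed the filter on low counts and were tested. NOD mice develop autoimmune diabetes spontaneously, and in NOD.Idd2 mice the Idd2 locus, which affects diabetes, is of B10 origin, so both groups compared here shared that locus. All mice were 12 weeks old and no treatment is named. The other 6 libraries, 3 of B cells and 3 of dendritic cells from NOD mice, served to ask whether the cell type difference was the same size in the control strain, to find the genes that part B cell replicate 3, and in an alternative fit of all 12 libraries. The labels do not say how the cells were isolated, how many animals gave each library or whether libraries came from separate animals, and p-values therefore cover no more than the spread between these samples.

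B cells and conventional dendritic cells are both professional antigen-presenting cells of the spleen. B cells recognise intact antigen through a surface immunoglobulin coupled to the signalling chains Cd79a and Cd79b, and their identity rests on the factors Ebf1 and Pax5. Conventional dendritic cells take up antigen through lectins, Fc receptors and scavenger receptors, sense microbes through Toll-like and other innate receptors, and present peptides to T cells. Those of the spleen fall into type 1 cells, which cross-present antigen to CD8 T cells and depend on Irf8 and Batf3, and type 2 cells, which present mainly to CD4 T cells. Plasmacytoid dendritic cells are a separate lineage that makes type I interferon.

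Total counts were 40344883 to 42877061 per library in B cells and 22769062, 30337812 and 8663421 in dendritic cells, and 17465 to 20727 autosomal genes had at least 1 count. Dendritic cell replicate 3 was the shallowest. Levels are given as counts-per-million (CPM) after TMM scaling of the 6 libraries together, where 1 CPM stood for 8.5 counts in the shallowest library and 43.3 in the deepest. On log2 CPM, Pearson correlations were 0.987 to 0.995 within a cell type and 0.752 to 0.763 between cell types. The median coefficient of variation over 8930 genes at 10 CPM or more was 4.96% in B cells and 4.42% in dendritic cells. Xist, the RNA of the inactive X chromosome, was present at 1572 to 1871 CPM per B cell library, against only 1 to 4 counts per dendritic cell library. The Y-linked genes Ddx3y, Eif2s3y, Kdm5d and Uty were at 0 counts in B cells and at 104 to 280.2 CPM in dendritic cells. Cell type and sex therefore cannot be told apart in any autosomal difference below.

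B cell replicate 3 stood apart from replicates 1 and 2 in 2 sets of genes. In NOD B cells 241 tested genes were at least 2-fold lower in replicate 3 than in replicates 1 and 2. Of these 109 were annotated as pseudogenes, and 239 were also lower in replicate 3 of the NOD.Idd2 B cells. All 15066 tested genes held 558 processed and 177 other pseudogenes. Another 67 tested genes were at least 2-fold higher in replicate 3 of the NOD B cells, 20 of them pseudogenes. Of the 67 genes 65 were also higher in replicate 3 of the NOD.Idd2 B cells. Actg1, a cytoplasmic actin, read 168 and 147 CPM in B cell replicates 1 and 2 and 10.1 CPM in replicate 3, beside 13.1, 12.6 and 11.1 CPM in the dendritic cell libraries. Rpl12, a ribosomal protein of the large subunit, read 520.2 and 512 CPM in B cell replicates 1 and 2, 65.3 CPM in replicate 3, and 21.7, 20.8 and 19.6 CPM in dendritic cells. Replicate 3 of the B cells thus lay near the dendritic cell libraries for these genes, whereas Actb stood at 4926, 4695 and 5227 CPM in B cells. Of the 241 genes 153 were called lower and 13 higher in dendritic cells, with a median log2 difference of -1.65. What separated replicate 3 was not tested. The ribosomal list, which holds most of the listed genes of either set, is given with and without B cell replicates 1 and 2. The other lists with genes of either set are those of immunoglobulin constant regions, the Bcl2 family, glycolysis, sterol and lipid genes and monocyte markers. Without B cell replicates 1 and 2 the higher and lower counts were 0 and 11 of 11 in the constant region list, 8 and 6 of 17 in the Bcl2 family, 12 and 5 of 24 in glycolysis, 24 and 5 of 32 in sterol and lipid genes and 10 and 2 of 14 in monocyte markers.

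Dendritic cells and B cells differed in 11547 of the 15066 tested autosomal genes, which is 76.6% of them, by the quasi-likelihood test of edgeR at a Benjamini-Hochberg adjusted p under 0.05. In dendritic cells 5795 genes (38.5%) were higher and 5752 (38.2%) were lower, and the median log2 difference over all tested genes was -0.02. A test against a minimum change of 2-fold called 4958 genes (32.9%), of which 1945 (12.9%) were lower and the other 3013 higher in dendritic cells. By fitted value 1558 genes were over 10-fold higher in dendritic cells and 803 over 10-fold lower. The 3 libraries of one cell type did not overlap those of the other in 11933 genes (79.2%). In bulk RNA fewer cells that express a gene and less RNA of it per cell cannot be told apart. Since a call was the rule rather than the exception, the counts over gene lists below are read against these shares, and a list member that passed the filter only through the cell type where it is high had to differ.

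**Figure D1:**
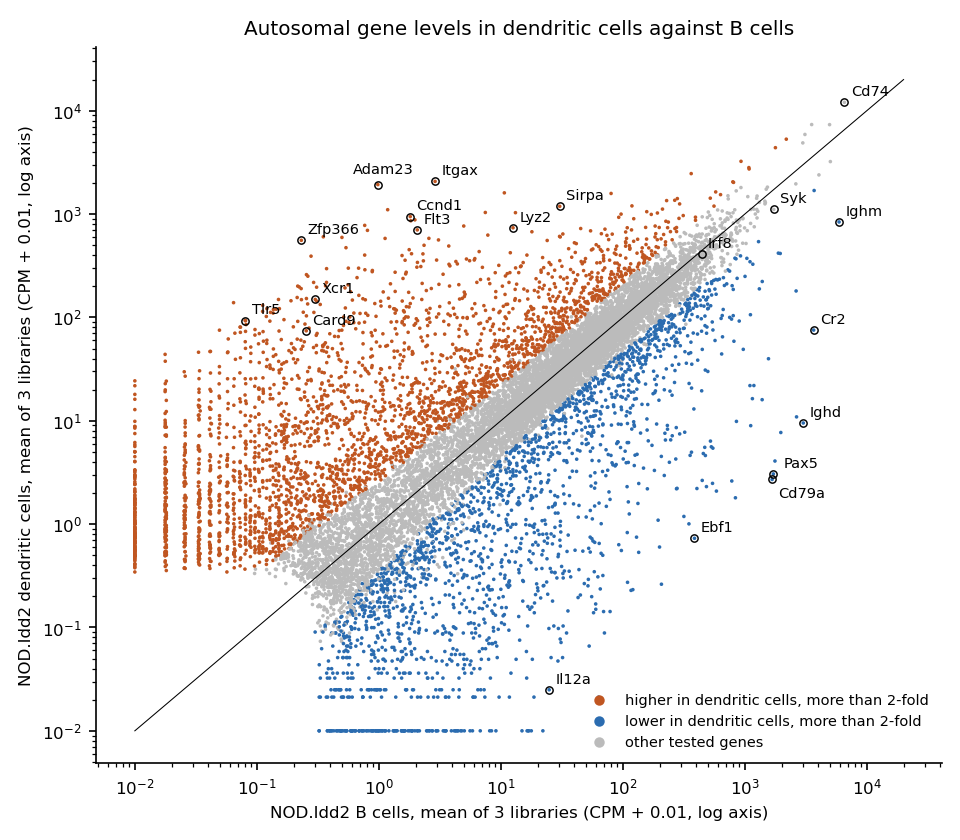
Mean level of each tested autosomal gene in NOD.Idd2 B cells (x axis) and dendritic cells (y axis), both in CPM on log axes, with genes called at more than 2-fold coloured by direction. The 3013 genes higher and the 1945 genes lower in dendritic cells lie on either side of the diagonal, with B cell receptor genes such as Cd79a near the bottom right and dendritic cell genes such as Itgax near the top left.

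The B cell antigen receptor and its coreceptors were almost wholly on the B cell side. Of 14 members that passed the filter, 13 were lower and 0 higher in dendritic cells, beside 38.2% and 38.5% of all tested genes, and their median log2 difference was -2.99. Cd79a, a signalling chain of the receptor, read 1788, 1671 and 1561 CPM across B cells and 2.60, 1.71 and 3.76 CPM across dendritic cells (log2 difference -9.45 ± 0.18, SE, adjusted p = 3.57e-10). Cd79b, its partner chain, read 1394, 1295 and 1469.8 CPM across B cells and 16.96, 14.7 and 16.2 CPM across dendritic cells (log2 difference -6.44 ± 0.08, SE, adjusted p = 5.57e-11). Every dendritic cell library lay far below every B cell library for both genes.

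Among the other members Cr2, the complement receptor CD21, read 3628, 3868 and 3496 CPM across B cells and 70.4, 70.4 and 85.4 CPM across dendritic cells (log2 difference -5.61 ± 0.09, SE, adjusted p = 1.58e-10). Ms4a1, which encodes CD20, had a log2 difference of -7.99. Inhibitory receptors differed by less: Cd22 fell to 415 CPM from 1950.3 (log2 -2.23), Cd72 to 70.6 from 378 (log2 -2.42) and Siglecg to 369 from 846 (log2 -1.20). Ly86, which pairs with the Toll-like relative Cd180, was the member that did not pass, at 198 CPM in B cells and 204 CPM in dendritic cells (log2 0.04).

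All 14 B lineage transcription factors measured were lower in dendritic cells, with a median log2 difference of -3.77. Pax5, which keeps B cells committed, read 1686, 1615 and 1835 CPM across B cells and 2.11, 2.45 and 4.59 CPM across dendritic cells (log2 difference -9.31 ± 0.19, SE, adjusted p = 4.29e-10). Ebf1, which acts with Pax5 from the earliest B cell stages, read 382, 384 and 394 CPM across B cells and 0.763, 0.336 and 1.06 CPM across dendritic cells (log2 difference -9.32 ± 0.17, SE, adjusted p = 2.57e-10). Both factors were near 0 in every dendritic cell library.

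Pou2af1, the coactivator of the octamer-binding factors, had a log2 difference of -7.81, and Pou2f2, which encodes the octamer-binding factor Oct-2, one of -1.70. Ikzf3 (log2 -5.79) and Ets1 (log2 -5.31) also fell by more than 10-fold in mean level. Bcl11a and Myb differed least within the list, at log2 -0.33 and -0.51. Spib, an ETS factor close to PU.1 that is also used by plasmacytoid dendritic cells, averaged 751 CPM in B cells and was lower in dendritic cells (log2 -2.91).

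Dendritic cell transcription factors were split. Of 18 tested, 13 were higher and 4 lower in dendritic cells, with a median log2 difference of 1.80. Zfp366, a zinc finger factor of dendritic cells also called DC-SCRIPT, read 535, 552 and 584 CPM in dendritic cells against 0.316, 0.256 and 0.0924 CPM in B cells (log2 difference 11.28 ± 0.17, SE, adjusted p = 8.18e-11). Batf3, needed for type 1 dendritic cells, read 71.6, 74.5 and 72.3 CPM in dendritic cells against 0.122, 0.116 and 0.0693 CPM in B cells (log2 difference 9.42 ± 0.11, SE, adjusted p = 3.39e-11). For both genes the groups lay far apart, with every B cell library under 1 CPM.

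Zbtb46, a factor found mainly in conventional dendritic cells among immune cells, read 411, 415 and 408 CPM in dendritic cells against 1.97, 2.40 and 2.50 CPM in B cells (log2 difference 7.49 ± 0.08, SE, adjusted p = 3.08e-11). Cebpa (log2 7.95), Id2 (log2 4.53), Relb (log2 2.52) and Spi1, which encodes PU.1 (log2 2.38), were also higher in dendritic cells. Irf8 and Irf4, which both lineages use, were lower there. Irf8 read 433, 439.6 and 460.04 CPM across B cells and 389, 415 and 416 CPM across dendritic cells (log2 -0.13, adjusted p = 0.0354), a small difference without overlap of the groups that did not pass in the fit of all 12 libraries (adjusted p = 0.0775), and Irf4 fell from a mean of 338 to 159.9 CPM (log2 -1.08). The other lower factors were Tcf4 (log2 -1.17), the E protein of the plasmacytoid lineage, and Notch2 (log2 -0.26).

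Promoters of strongly differing genes are shown because several of the factors above are known to bind defined letters. A set of 4 short motifs was sought on both strands in the 250 bases before the start site, in RefSeq promoters of build GRCm38.p6: TCCC and GGGA parted by 2 bases of any kind for EBF factors, GAGGAAGT for ETS factors such as PU.1, the octamer ATGCAAAT, and GAAA repeated after 2 bases of any kind for interferon regulatory factors. RefSeq promoters were matched to 10256 of the 15066 tested genes, to 103 of the 200 genes most lowered and to 166 of the 200 most raised in dendritic cells. The EBF letters were in 0.907% of all matched promoters, in 2.91% of the lowered set (3 of 103) and in 0.602% of the raised set (1 of 166). The repeated GAAA was in 2.83% of all, 1.94% of the lowered set (2 of 103) and 6.02% of the raised set (10 of 166). GAGGAAGT was in 2.81%, 2.91% (3 of 103) and 3.01% (5 of 166) of the same sets. The octamer was in 1.37%, 2.91% (3 of 103) and 1.81% (3 of 166). The shares of the lowered and raised sets thus rest on few promoters. No test was made of these shares, and a match describes the letters and is not a binding site or a cause.

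The following 5 promoters are printed from 5′ to 3′ on the strand of the gene, with motif matches on either strand in capitals. They were chosen among promoters that hold a match and are not typical, since most promoters of either set hold none. Vpreb3 and Fcrla, both B cell genes, were lower in dendritic cells, and Tlr11, Slamf8 and Havcr2 were higher. The Vpreb3 promoter (chr10:75948050-75948299, plus strand) holds an octamer match that begins 45 bases before the start, and that of Fcrla (chr1:170927584-170927833, minus strand) an interferon regulatory factor match 192 bases before it. The Tlr11 promoter (chr14:50357664-50357913, plus strand) holds an ETS match at 133 and an interferon regulatory factor match at 122 bases. The Slamf8 promoter (chr1:172590569-172590818, minus strand) holds an interferon regulatory factor match at 15 bases, and that of Havcr2 (chr11:46454681-46454930, plus strand) an ETS match at 8 bases.
Vpreb3: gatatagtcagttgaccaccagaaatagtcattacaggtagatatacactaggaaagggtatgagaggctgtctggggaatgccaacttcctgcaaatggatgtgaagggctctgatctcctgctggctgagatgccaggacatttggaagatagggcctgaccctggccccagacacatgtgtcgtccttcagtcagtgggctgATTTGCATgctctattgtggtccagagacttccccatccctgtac
Fcrla: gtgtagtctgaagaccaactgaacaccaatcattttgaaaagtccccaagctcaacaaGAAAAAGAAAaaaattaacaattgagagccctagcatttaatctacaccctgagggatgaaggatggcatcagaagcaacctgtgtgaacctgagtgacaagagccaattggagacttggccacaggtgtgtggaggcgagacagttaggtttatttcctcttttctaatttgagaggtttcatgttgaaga
Tlr11: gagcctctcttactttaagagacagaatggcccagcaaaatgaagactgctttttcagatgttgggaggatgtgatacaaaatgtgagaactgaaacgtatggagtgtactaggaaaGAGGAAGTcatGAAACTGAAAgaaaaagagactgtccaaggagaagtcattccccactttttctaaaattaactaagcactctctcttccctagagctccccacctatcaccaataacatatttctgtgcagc
Slamf8: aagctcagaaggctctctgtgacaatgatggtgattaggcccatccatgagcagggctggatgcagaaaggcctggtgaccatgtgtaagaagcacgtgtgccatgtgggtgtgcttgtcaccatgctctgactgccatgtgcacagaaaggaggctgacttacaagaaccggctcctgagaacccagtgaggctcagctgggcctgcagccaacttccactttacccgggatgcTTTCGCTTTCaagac
Havcr2: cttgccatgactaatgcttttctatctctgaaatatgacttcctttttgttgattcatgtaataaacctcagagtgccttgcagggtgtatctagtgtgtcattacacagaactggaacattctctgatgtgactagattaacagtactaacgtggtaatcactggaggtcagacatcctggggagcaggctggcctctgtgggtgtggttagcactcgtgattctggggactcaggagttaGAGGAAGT

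Immunoglobulin RNA was lower in dendritic cells, by far less for Ighm than for Ighd. All 11 tested constant region genes were lower there, with a median log2 difference of -4.46. Ighd, the constant region of IgD, read 2873, 2629 and 3537 CPM across B cells and 7.32, 8.26 and 12.9 CPM across dendritic cells. Ighm, the constant region of IgM, read 5765, 5571 and 6431 CPM across B cells and 964, 506 and 1046 CPM across dendritic cells (log2 difference -2.82 ± 0.24, SE, adjusted p = 6.95e-06). In the dendritic cell libraries the mean of Ighm was 14.2% of that in B cells and that of Ighd 0.315%.

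Dendritic cell replicate 2 was lowest for Ighm, and it was also lowest for Igkc, the kappa light chain, at 2458, 2174 and 3261 CPM across B cells and 220.4, 72.1 and 248 CPM across dendritic cells. Jchain, which joins the units of secreted IgM and IgA, showed the same order at 192, 136 and 122 CPM across B cells and 110.2, 31.4 and 112 CPM across dendritic cells, and although its groups did not overlap it did not pass the test (log2 -0.85, adjusted p = 0.0870). Its call depended on the setting, and the lowest adjusted p was 0.0145, without B cell replicate 3. The 6 defining B cell genes Cd79a, Cd79b, Cr2, Pax5, Ebf1 and Ms4a1 summed to 11390 to 11650 CPM in B cells and to 99.1 to 124 CPM in dendritic cells, which is 0.947% of the B cell sum, and none was at 0. The part of residual B lineage RNA in these levels was not tested.

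Of 11 plasma cell genes tested, 5 were lower and 1 higher in dendritic cells, beside 38.2% and 38.5% of all tested genes. Mzb1, a chaperone of immunoglobulin assembly, fell from 195 to 1.08 CPM (log2 -7.93) and Sdc1, which encodes CD138, from 21.8 to 1.07 (log2 -4.53). Xbp1, a factor of secretory cells, did not pass the test (log2 0.06). Tent5c, a poly(A) polymerase that stabilises immunoglobulin RNA, was the higher member, at 65.1 CPM in dendritic cells and 11.5 in B cells.

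Among the antibody diversification genes Vpreb3 had 3965 counts in B cells and 3 in dendritic cells, a ratio of 629 (95% counting interval 215 to 3049). Floors and intervals cover counting error only. Of 10 tested members 4 were lower and 3 higher, beside 38.2% and 38.5% of all tested genes. The higher count was 1 without dendritic cell replicate 1, without dendritic cell replicate 2, without B cell replicate 2, or with library totals. Without a count filter 7 of 14 were lower and 1 higher.

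**Figure D2:**
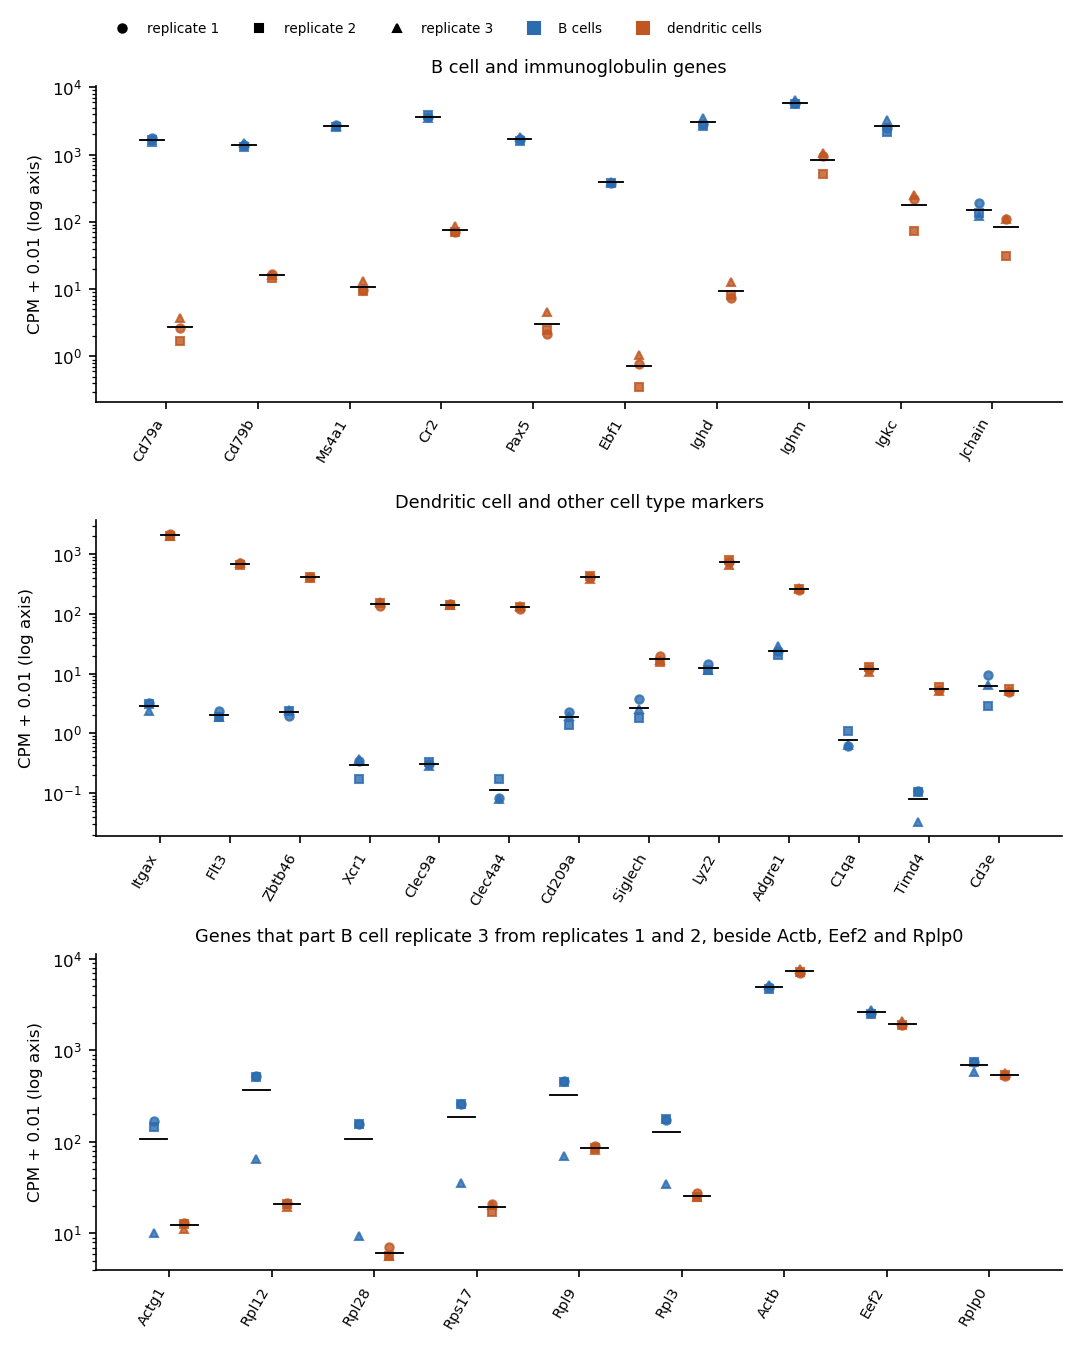
Levels by library in CPM on a log axis for B cell defining genes, dendritic cell markers and genes that part B cell replicate 3 from replicates 1 and 2, with 1 point per library coloured by cell type. Cd79a lies at 1561 to 1788 CPM in B cells and at 1.71 to 3.76 CPM in dendritic cells, and Actg1 in B cell replicate 3 lies at 10.1 CPM beside the dendritic cell libraries.

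The genes that place B cells in the follicle and marginal zone were mostly lower in dendritic cells, 16 of 19 tested, with 2 higher. Cxcr5, the receptor that leads B cells into follicles, read 590.2, 554 and 609.95 CPM across B cells and 1.80, 1.38 and 3.06 CPM across dendritic cells (log2 difference -8.34 ± 0.16, SE, adjusted p = 3.87e-10). Fcer2a, the low affinity IgE receptor CD23, had a log2 difference of -6.98, and Cd55, which limits complement, one of -8.30. The sphingosine receptors S1pr1 (log2 -6.70), S1pr3 (log2 -8.17) and S1pr4 (log2 -4.54), which guide exit and positioning, all fell. Cd9 and Cd93 were the higher members, at log2 2.22 and 2.48.

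General dendritic cell markers were higher in dendritic cells for 14 of 16 tested genes, with 1 lower and a median log2 difference of 3.21. Itgax, the CD11c integrin chain, read 2153, 2046 and 2008 CPM in dendritic cells against 3.24, 3.05 and 2.36 CPM in B cells (log2 difference 9.49 ± 0.12, SE, adjusted p = 4.22e-11). Flt3, the receptor of the growth factor on which dendritic cells depend, read 722, 669.7 and 715 CPM in dendritic cells against 2.41, 1.91 and 1.85 CPM in B cells (log2 difference 8.42 ± 0.10, SE, adjusted p = 3.72e-11). Adam23, a catalytically inactive surface ADAM protein, read 1974, 1899 and 1910.3 CPM in dendritic cells against 1.31, 0.744 and 0.855 CPM in B cells (log2 difference 10.96 ± 0.15, SE, adjusted p = 6.02e-11). The B cell libraries stayed under 4 CPM for all of these.

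Kit, the stem cell factor receptor, was at 695 CPM in dendritic cells and 0.797 CPM in B cells (log2 9.77), and the Rab regulator Tbc1d8 at 581 and 1.11 CPM (log2 9.02). Ccr7, which leads activated dendritic cells to lymph nodes and also guides B cells to the T zone, was lower in dendritic cells, at 144, 141 and 171 CPM across B cells and 66.9, 60.2 and 62.2 CPM across dendritic cells (log2 -1.27). Dpp4, the peptidase CD26, was high on both sides at 233 CPM in B cells and 738 CPM in dendritic cells (log2 1.66).

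Markers of both conventional subsets were present. Of 18 type 1 markers 16 were higher and 2 lower in dendritic cells, with a median log2 difference of 4.06. Xcr1, the chemokine receptor that marks type 1 cells, read 134, 153 and 160.1 CPM in dendritic cells against 0.341, 0.163 and 0.370 CPM in B cells (log2 difference 8.98 ± 0.16, SE, adjusted p = 1.99e-10). Clec9a, which binds actin of dead cells, had a log2 difference of 8.90, Tlr11, a sensor of profilin, one of 10.003, and Cadm1 one of 7.29. Ifi205 belongs to a family of closely similar genes, and its value of log2 9.54 depends on how reads were shared among them. The lower members were Irf8 and Cd36, a scavenger receptor that marginal zone B cells also express (log2 -1.32).

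Among the 18 type 2 markers tested 16 were higher and 2 lower, with a median log2 difference of 6.58. Clec4a4, the lectin recognised by the 33D1 antibody, read 124, 133 and 136 CPM in dendritic cells against 0.0730, 0.163 and 0.0693 CPM in B cells (log2 difference 10.27 ± 0.14, SE, adjusted p = 5.80e-11). Cd209a, a DC-SIGN relative, read 413, 439.99 and 385 CPM in dendritic cells against 2.24, 1.37 and 1.92 CPM in B cells (log2 difference 7.81 ± 0.14, SE, adjusted p = 2.42e-10). Cd4 itself, which splenic type 2 cells carry, stood at 385, 372 and 354 CPM in dendritic cells against 9.90, 2.91 and 5.52 CPM in B cells (log2 5.93). Every dendritic cell library exceeded every B cell library by more than 10-fold for these genes.

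Sirpa (log2 5.29), Esam (log2 8.64) and Cx3cr1 (log2 7.02) were also higher in dendritic cells. Ltb, the lymphotoxin chain that B cells make as well, and Dtx1, a Notch target of both splenic lineages, were the lower ones at log2 -0.70 and -0.23. On the scale of CPM per kilobase of exon (RPKM), which allows levels of different genes to be compared, dendritic cells held 33.5 for Xcr1, 43.7 for Clec9a, 169 for Clec4a4 and 261 for Cd209a. These levels do not give the share of each subset.

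Plasmacytoid markers did not move one way. Of 14 tested, 9 were higher and 5 lower in dendritic cells, with a median log2 difference of 1.38 and a summed level of 2013 to 2258 CPM in B cells and 659 to 704 CPM in dendritic cells. Siglech, the defining surface receptor, read 19.5, 15.6 and 17.3 CPM in dendritic cells against 3.70, 1.81 and 2.57 CPM in B cells (log2 difference 2.70 ± 0.23, SE, adjusted p = 6.45e-06). Lair1 (log2 4.47) and Runx2 (log2 6.25) were higher in dendritic cells. The lower members Ly6d (log2 -7.27), Spib (log2 -2.91) and Pacsin1 (log2 -3.01) are also expressed by B cells, as their B cell levels of 21.4 to 751 CPM show.

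Some adaptors that carry immunoreceptor activation motifs differed in opposite directions. Cd79a and Cd79b fell as given above, whereas Fcer1g, the common chain of activating Fc receptors, read 162, 155 and 144 CPM in dendritic cells against 1.36, 1.19 and 1.02 CPM in B cells (log2 difference 7.01 ± 0.10, SE, adjusted p = 6.66e-11). Tyrobp, which encodes DAP12 and serves myeloid receptors, read 295, 303 and 305 CPM in dendritic cells against 14.8, 12.03 and 12.8 CPM in B cells (log2 difference 4.51 ± 0.08, SE, adjusted p = 2.06e-10). Hcst, which encodes DAP10 and was listed although it lacks an immunoreceptor activation motif, was lower in dendritic cells at 3.73 against 7.74 CPM (log2 -1.06). The T cell receptor chains of the CD3 complex were under 10 CPM in mean level in both cell types, and none of them passed the test. In all 2 of the 9 listed adaptors were higher, 3 lower and 4 not called, with Hcst among the lower. Over all tested genes 38.5% were higher and 38.2% lower.

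Signalling genes downstream of these adaptors lay on both sides. Of 43 tested kinases, lipases and adaptors 18 were higher and 20 lower in dendritic cells, beside 38.5% and 38.2% of all tested genes. Their median log2 difference was -0.19. Blnk, the scaffold below the B cell receptor, read 431, 459 and 451 CPM across B cells and 2.47, 2.15 and 3.29 CPM across dendritic cells (log2 difference -7.50 ± 0.10, SE, adjusted p = 7.17e-11). Lcp2, the related scaffold SLP-76 of T cells and myeloid cells, read 15.3, 13.6 and 15.1 CPM across B cells and 313, 317 and 314 CPM across dendritic cells (log2 difference 4.42 ± 0.06, SE, adjusted p = 5.98e-11). Each scaffold was high in the cell type where the other was low.

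Of the Src family kinases, Blk (log2 -4.05) and Lck (log2 -2.92) were lower in dendritic cells, and Fgr (log2 3.07) was higher. Lyn, which both lineages use, did not pass the test, at 565 CPM in B cells and 601 CPM in dendritic cells. Syk, the kinase that binds phosphorylated activation motifs, was high in both, at 1626, 1749 and 1805 CPM across B cells and 1147, 1137 and 1039 CPM across dendritic cells (log2 -0.64). Tec (log2 -2.76) fell, and Fes, a tyrosine kinase of myeloid cells (log2 3.75), rose.

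Ras activators were found on both sides. Rasgrp2 was at 359.8 CPM in B cells and 45.5 CPM in dendritic cells (log2 -2.98), and Rasgrp4 at 6.35 and 218 CPM (log2 5.10). Card9, which couples lectin receptors to Bcl10 and Malt1, read 79.8, 69.6 and 73.1 CPM in dendritic cells against 0.268, 0.302 and 0.162 CPM in B cells (log2 difference 8.23 ± 0.13, SE, adjusted p = 1.33e-10). Bank1, a B cell scaffold, had a log2 difference of -4.30, and Plcg1 and Plcg2, the phospholipases, differed in opposite directions at log2 0.70 and -0.44.

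**Figure D3:**
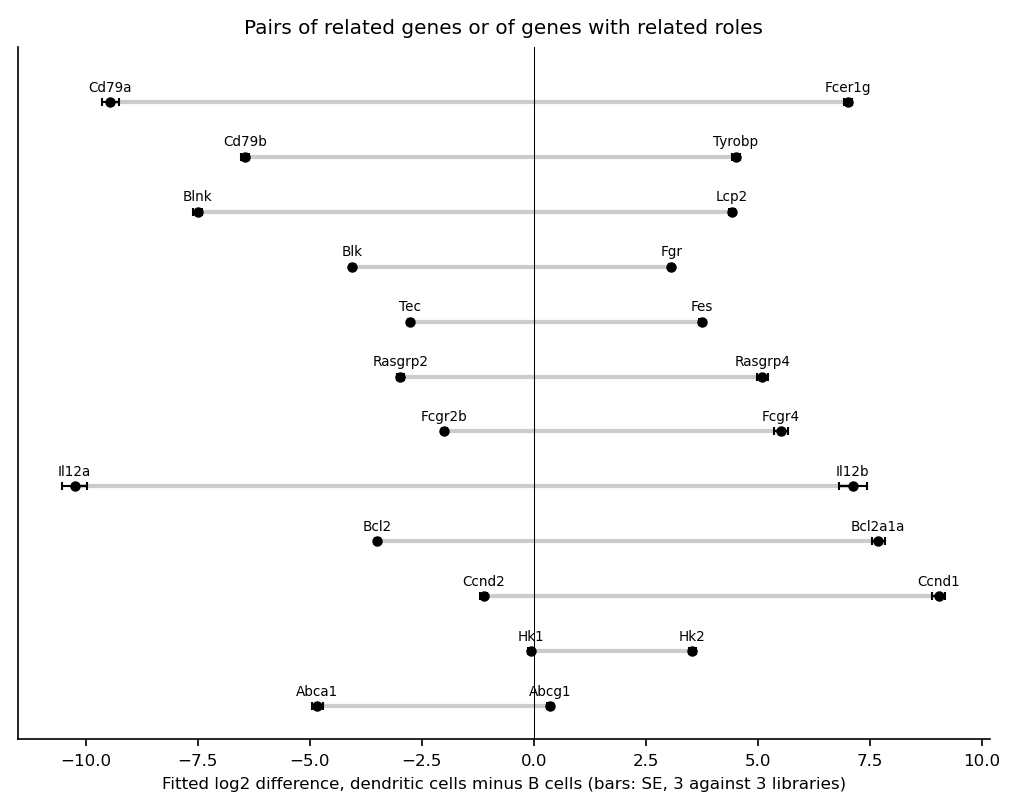
Log2 difference of dendritic cells minus B cells, with bars of 1 SE, for 12 pairs of related genes that were chosen after their values were seen. Blnk at -7.50 and Lcp2 at 4.42, and Il12a at -10.24 and Il12b at 7.12, are examples of pairs on opposite sides of 0.

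Antigen presentation through MHC class II was higher in dendritic cells on a base that was high in both. Of 20 genes tested 15 were higher and 4 lower, with a median log2 difference of 0.81. Cd74, the invariant chain, read 6154, 5885 and 7605 CPM across B cells and 11912, 12091 and 12148 CPM across dendritic cells (log2 difference 0.88 ± 0.09, SE, adjusted p = 2.34e-05). Ciita, the master coactivator of class II genes, read 565, 549.95 and 615 CPM across B cells and 1614, 1629 and 1666 CPM across dendritic cells (log2 difference 1.504 ± 0.05, SE, adjusted p = 1.54e-08). H2-Ab1 and H2-Aa, the chains of the I-A molecule, differed by log2 1.30 and 1.06.

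Dendritic cells thus held 1.84 times the Cd74 level and 2.84 times the Ciita level of B cells. The lower members included H2-Ob (log2 -0.67), a chain of the H2-O molecule that restrains peptide loading, and H2-DMb2 (log2 -0.77), while its near copy H2-DMb1 was higher (log2 0.61). Reads of the H2-DMb genes may have been shared between them. H2-Eb1 was at 2187 CPM in B cells and 5300.2 CPM in dendritic cells. Ifi30, a thiol reductase of the loading compartment, had a log2 difference of 2.06, and the protease Lgmn one of -0.58.

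Class I processing genes were higher in dendritic cells for 20 of 21 tested, with none lower and Canx, a chaperone, not passing the test (log2 0.06). B2m, the light chain of class I, read 827, 772 and 792 CPM across B cells and 2022, 2142 and 1983 CPM across dendritic cells (log2 difference 1.36 ± 0.05, SE, adjusted p = 2.05e-08). Wdfy4, which type 1 dendritic cells need for cross-presentation, was at 1084 CPM in B cells and 2729 CPM in dendritic cells (log2 1.33). Rab43, another cross-presentation gene, had a log2 difference of 3.47 and Nlrc5, the coactivator of class I genes, one of 1.46. The median log2 difference of the list was 0.73.

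Innate sensors differed by member. Of 28 Toll-like receptor and nucleic acid sensor genes tested 17 were higher and 8 lower in dendritic cells. Tlr5, the flagellin receptor, read 95.8, 93.7 and 89.02 CPM in dendritic cells against 0.0730, 0.0698 and 0.0693 CPM in B cells (log2 difference 10.28 ± 0.10, SE, adjusted p = 1.92e-11). Nlrp3, an inflammasome sensor, read 132, 134 and 135 CPM in dendritic cells against 0.268, 0.233 and 0.462 CPM in B cells (log2 difference 8.68 ± 0.13, SE, adjusted p = 8.10e-11). Both were under 1 CPM in each B cell library.

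Tlr3, which binds double-stranded RNA, had a log2 difference of 2.08, and Ifih1, a cytosolic RNA sensor, one of 4.24. Tlr4, the endotoxin receptor, was lower in dendritic cells at 15.4 CPM against 44.2 CPM in B cells (log2 -1.53), as were Tlr1 (log2 -0.56) and Ddx58, which encodes RIG-I (log2 -0.98). Unc93b1, the transport protein of endosomal receptors, did not pass, at 682 CPM in B cells and 728 CPM in dendritic cells (adjusted p = 0.0889, and 0.0395 with DESeq2). Ticam2, a Tlr4 adaptor, was higher in dendritic cells (log2 4.69).

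Lectin and scavenger receptors were the list with the second highest median log2 difference, 6.19, and 23 of 24 tested were higher in dendritic cells. Clec7a, the beta-glucan receptor Dectin-1, read 91.8, 89.1 and 83.5 CPM in dendritic cells against 0.876, 0.489 and 0.670 CPM in B cells (log2 difference 7.02 ± 0.13, SE, adjusted p = 2.76e-10). Clec4a1 (log2 7.69) and Cd209c (log2 8.77) were higher too. Clec4b1 had 1 count over the B cell libraries and 1245 over the dendritic cell libraries, a ratio of 2618 (95% counting interval 469 to 103484). Cd36 was the lower member. The Clec4a, Clec4b and Cd209 genes lie in families of similar sequence, so the split between members depends on the counting.

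Fc and complement receptors divided by class. Of 19 tested 10 were higher and 8 lower in dendritic cells, beside 38.5% and 38.2% of all tested genes. Fcmr, the receptor of IgM, read 831, 744 and 936 CPM across B cells and 1.48, 1.41 and 2.47 CPM across dendritic cells (log2 difference -9.02 ± 0.16, SE, adjusted p = 2.26e-10). Fcgr2b, the inhibitory IgG receptor, read 301, 328 and 312 CPM across B cells and 79.3, 82.3 and 72.8 CPM across dendritic cells (log2 difference -2.000 ± 0.06, SE, adjusted p = 5.18e-09). Fcgr4, an activating IgG receptor, read 0.487, 0.442 and 0.324 CPM across B cells and 17.7, 19.01 and 21.4 CPM across dendritic cells (log2 difference 5.52 ± 0.16, SE, adjusted p = 4.96e-09). Among the lower members were also Fcrl5 (log2 -6.29) and Fcer2a, and among the higher Fcgr3 (log2 4.30) and Fcgr1 (log2 5.26).

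Costimulatory and coinhibitory genes were higher in dendritic cells in most cases. Of 22 tested 14 were higher and 7 lower in dendritic cells. Cd80, a ligand of CD28, read 4.01, 4.09 and 4.11 CPM across B cells and 129.5, 121 and 118 CPM across dendritic cells (log2 difference 4.91 ± 0.06, SE, adjusted p = 4.81e-11). Havcr2, which encodes TIM-3, read 0.633, 0.489 and 0.462 CPM across B cells and 457, 485 and 475 CPM across dendritic cells (log2 difference 9.80 ± 0.09, SE, adjusted p = 1.92e-11). Its promoter is printed above, as is that of Slamf8, which read 0.219, 0.116 and 0.0231 CPM across B cells and 106, 112 and 118 CPM across dendritic cells (log2 difference 9.84 ± 0.20, SE, adjusted p = 5.05e-10). The B cell libraries were at 1 CPM or less for both Havcr2 and Slamf8.

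Cd86 (log2 2.50) and Cd274, which encodes PD-L1 (log2 1.78), were higher in dendritic cells. Cd40, the receptor for T cell help, was lower, at 89.4 CPM against 178 CPM in B cells (log2 -0.99), as were the inhibitory receptor Btla (log2 -2.01), Slamf6 (log2 -3.94) and Slamf1 (log2 -5.33). Icosl, the ligand of ICOS, differed little, at 447 and 533 CPM (log2 0.25).

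TNF family ligand and receptor genes held large RNA differences in both directions. Tnfrsf13c, the BAFF receptor on which mature B cells depend, read 347, 339 and 382 CPM across B cells and 4.08, 4.70 and 5.06 CPM across dendritic cells (log2 difference -6.29 ± 0.09, SE, adjusted p = 7.33e-11). Tnfrsf11a, which encodes RANK, read 0.122, 0.0465 and 0 CPM across B cells and 69.2, 71.4 and 70.4 CPM across dendritic cells (log2 difference 10.22 ± 0.23, SE, adjusted p = 7.56e-10). Ltbr, the lymphotoxin beta receptor, was at 37.3 CPM in dendritic cells and 0.165 CPM in B cells (log2 7.79), and its ligand gene Lta fell (log2 -3.26). Tnf itself was lower in dendritic cells (log2 -0.97). Of 19 tested 11 were higher and 7 lower, beside 38.5% and 38.2% of all tested genes.

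Of 15 chemokine receptors tested 7 were higher and 6 lower in dendritic cells, beside 38.5% and 38.2% of all tested genes. Ccr2, which responds to monocyte chemoattractants, read 7.40, 3.79 and 4.46 CPM across B cells and 359, 368 and 374 CPM across dendritic cells (log2 difference 6.14 ± 0.21, SE, adjusted p = 1.40e-08). Cxcr4 (log2 -1.53) and Ccr6 (log2 -1.14) were lower in dendritic cells. All 10 chemokines that passed the filter were higher in dendritic cells, with a median log2 difference of 5.44, while 11 others were below the filter. The 10 together summed to 3.30 to 4.74 CPM in B cells and 339 to 348 CPM in dendritic cells. Those that passed the filter only through the dendritic cell libraries had to be higher there, so the count and median are no independent result. Cxcl16, a membrane-bound chemokine, was at 69.7 CPM (log2 9.47), Cxcl9 at 73.8 CPM (log2 8.99) and Ccl9 at 53.6 CPM (log2 7.47) in dendritic cells, each with a B cell mean under 1 CPM.

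Cytokine genes were low in most cases, and 7 of those listed were below the filter. Il1b, a product of activated myeloid cells, read 1.05, 0.628 and 0.601 CPM across B cells and 329, 261 and 277 CPM across dendritic cells (log2 difference 8.57 ± 0.17, SE, adjusted p = 4.45e-10). The 2 chains of interleukin 12 lay on opposite sides. Il12a, the p35 chain, had 3171 counts over the B cell libraries and 1 over the dendritic cell libraries, a ratio of 1508 (95% counting interval 270.5 to 59582), and stood at 23.9, 23.7 and 27.1 CPM across B cells and 0.0449, 0 and 0 CPM across dendritic cells. Il12b, the p40 chain, had 226 counts over the dendritic cell libraries and 3 over the B cell libraries, a ratio of 158 (95% counting interval 53.5 to 774). Of 15 tested 9 were higher and 6 lower in dendritic cells, beside 38.5% and 38.2% of all tested genes.

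Cytokine receptors were higher in dendritic cells for 23 of 32 tested, with 8 lower. Csf1r, the receptor of macrophage colony-stimulating factor, read 3.24, 3.14 and 2.52 CPM across B cells and 368, 348 and 359.6 CPM across dendritic cells (log2 difference 6.92 ± 0.09, SE, adjusted p = 5.88e-11). Csf2ra and Csf2rb, the chains of the GM-CSF receptor, had log2 differences of 4.48 and 2.60. Il5ra, the interleukin 5 receptor chain, was at 62.4 CPM in B cells and 0.299 CPM in dendritic cells (log2 -7.69). Tgfbr1 rose (log2 1.20) where Tgfbr2 fell (log2 -1.85). Ifngr1, a chain of the interferon gamma receptor, rose from 118 to 702 CPM.

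**Figure D4:**
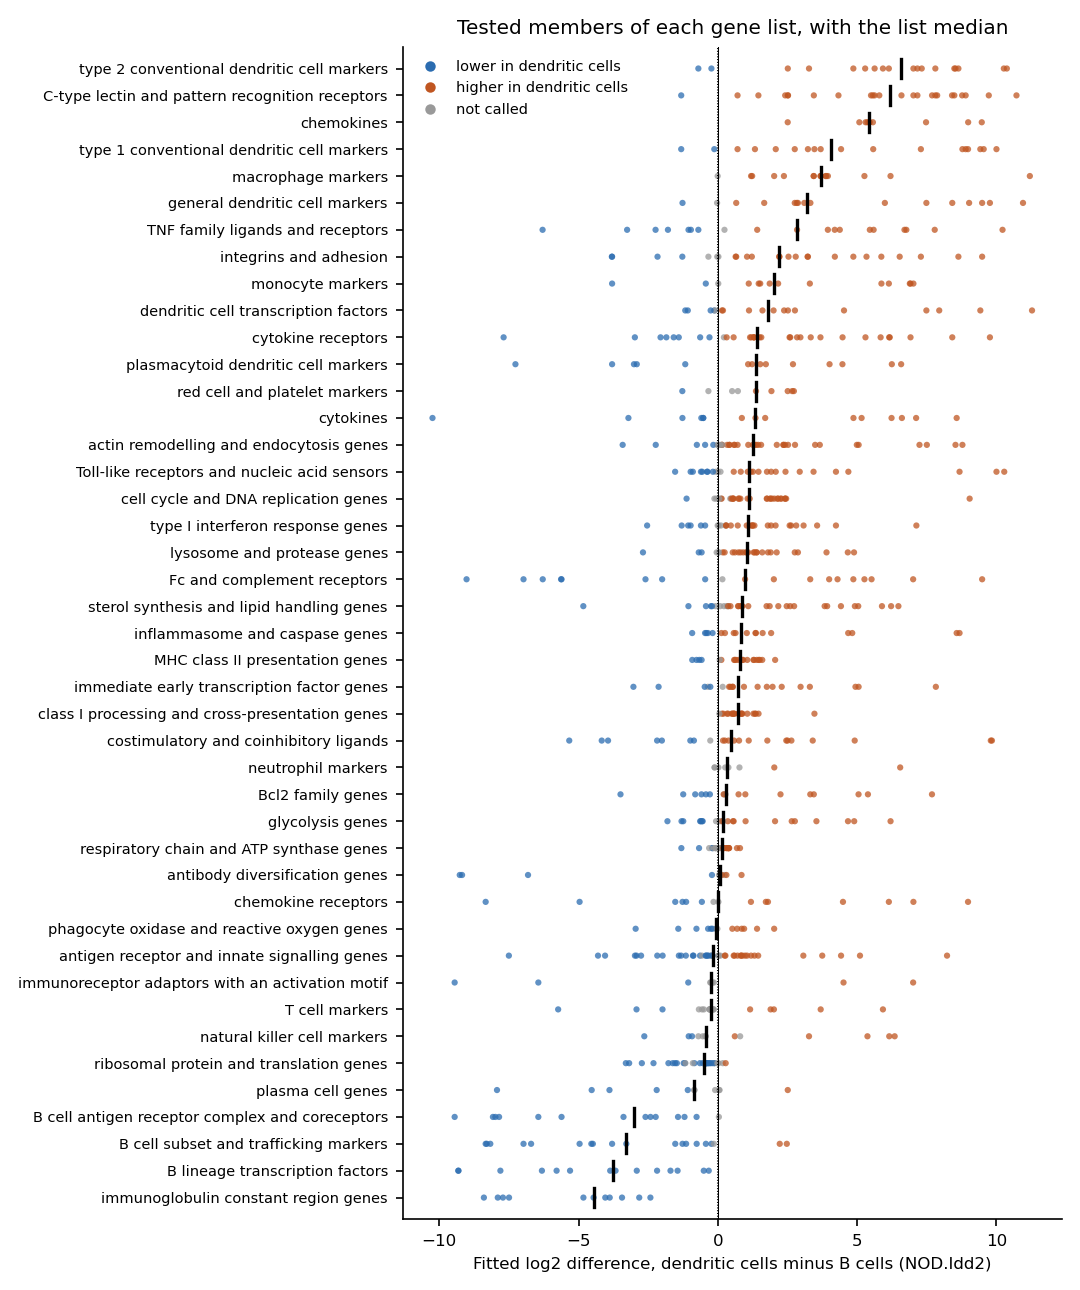
Log2 difference of dendritic cells minus B cells for each tested member of the gene lists, 1 row per list, with the median of each list marked and points coloured by call. The row medians run from 6.58 for type 2 dendritic cell markers to -4.46 for immunoglobulin constant regions, and most rows hold members on both sides of 0.

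Adhesion, motility and uptake genes were mostly higher in dendritic cells. Of 25 integrin and adhesion genes 18 were higher and 4 lower, and of 37 actin and endocytosis genes 28 and 5. Fscn1, the actin bundler of dendrites, read 1.39, 1.65 and 1.66 CPM across B cells and 240.3, 218 and 256 CPM across dendritic cells (log2 difference 7.24 ± 0.10, SE, adjusted p = 5.98e-11). Itgb2, the beta chain of LFA-1 and CD11c integrins, rose from 171 to 992 CPM (log2 2.54), whereas Itgal, the alpha chain of LFA-1, did not pass (log2 -0.02). Icam2 (log2 -3.81) and Capg, an actin capping protein (log2 -3.42), were lower. Members of the annexin family rose, Anxa3 by log2 7.50 and Anxa2 by log2 4.99.

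Of 29 lysosome and protease genes 23 were higher and 3 lower in dendritic cells. Psap, the saposin precursor, read 939, 912 and 939.8 CPM across B cells and 3052, 3419 and 3236 CPM across dendritic cells (log2 difference 1.80 ± 0.05, SE, adjusted p = 4.91e-09). Cd68, a lysosomal membrane protein, had a log2 difference of 4.89 and Cst3, cystatin C, one of 2.87. Ctse, an endosomal protease that B cells also make, fell (log2 -2.69). The phagocyte oxidase list had 6 of 14 higher and 6 lower, beside 38.5% and 38.2% of all tested genes. Hvcn1, a proton channel that supports oxidase activity, fell from 803 to 104 CPM (log2 -2.95), and Rac2 fell where Rac1 rose (log2 -1.42 and 0.69).

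Survival genes differed within the Bcl2 family. Bcl2, which protects resting lymphocytes, read 259.6, 271 and 265 CPM across B cells and 22.2, 25.1 and 23.1 CPM across dendritic cells (log2 difference -3.49 ± 0.06, SE, adjusted p = 1.63e-10). Pmaip1, which encodes the proapoptotic protein Noxa, read 9.17, 10.7 and 8.94 CPM across B cells and 305, 343 and 308 CPM across dendritic cells (log2 difference 5.05 ± 0.09, SE, adjusted p = 2.03e-10). Mcl1 was at 1219 CPM in B cells and 1000.2 CPM in dendritic cells (log2 -0.29). Bcl2a1a was higher in dendritic cells (log2 7.69), and it is one of several near-identical copies whose reads can be misplaced. Of 17 tested 9 were higher and 6 lower, beside 38.5% and 38.2% of all tested genes.

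Cell cycle genes were higher in dendritic cells for 24 of 30 tested, with Ccnd2 the lower one. Mki67, present in dividing cells, read 57.3, 61.2 and 41.2 CPM across B cells and 236, 268 and 274 CPM across dendritic cells (log2 difference 2.28 ± 0.14, SE, adjusted p = 6.42e-07). Top2a (log2 1.95), Cdk1 (log2 2.25) and Birc5 (log2 2.15) rose, and Pcna did not pass (log2 -0.12). For Pcna, which has pseudogene copies, the difference was -0.34 without B cell replicate 3 and 0.30 without B cell replicates 1 and 2, and passed in both cases. The D cyclins divided: Ccnd1 read 2.34, 1.49 and 1.57 CPM across B cells and 915, 994 and 927 CPM across dendritic cells (log2 difference 9.04 ± 0.14, SE, adjusted p = 1.15e-10), while Ccnd2 fell from 169 to 77.3 CPM (log2 -1.12). Ccnd3 was higher by log2 0.74.

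Metabolic genes lay on both sides. Hk2 and Hk3, hexokinases, rose by log2 3.54 and 4.90, and Hk1 did not pass at 71.9 and 68.97 CPM. Eno2 and Eno3, enolases, rose by log2 6.20 and 2.76. Abca1, a cholesterol exporter, read 390.4, 357 and 399 CPM across B cells and 13.3, 15.4 and 10.2 CPM across dendritic cells (log2 difference -4.83 ± 0.12, SE, adjusted p = 1.68e-09), and Abcg1, another exporter, rose by log2 0.37. Alox5ap, needed for leukotriene synthesis, rose by log2 6.22. Of the glycolysis genes 13 of 24 were higher and 7 lower, beside 38.5% and 38.2% of all tested genes. Of the sterol and lipid genes 22 of 32 were higher and 5 lower. Respiratory chain genes gave 15 higher and 4 lower of 29, which became 12 and 9 with library totals, 11 and 7 without B cell replicate 2 and 10 and 7 without B cell replicates 1 and 2. Among protein-coding genes without exon overlap on the same strand or a shift in replicate 3 they were 11 and 8 of 27.

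Ribosomal protein and translation genes were lower in dendritic cells for 22 of 30 tested, with 1 higher and a median log2 difference of -0.48. Of these 30 genes 11 were among those that part B cell replicate 3. Without B cell replicates 1 and 2 the counts were 20 lower and 7 higher and the median was -0.30, where the remaining B cell library was assumed to vary like the dendritic cell libraries. At a minimum of 2-fold 6 were lower, 12 without B cell replicate 3, 2 without B cell replicate 1, and 1 without B cell replicate 2, without replicates 1 and 2 of the B cells or without any one of the dendritic cell libraries. By DESeq2 1 was lower at 2-fold and by limma-voom 0, with 9 when no count filter was used and 4 in the fit of 12 libraries. Eef2, the elongation factor of translocation, read 2556, 2516 and 2783 CPM in B cells and 1890, 1901 and 2083 CPM in dendritic cells (log2 -0.42). Rplp0, of the ribosomal stalk, read 750.3, 740.4 and 578 CPM against 523, 542 and 569 CPM (log2 -0.34), and without B cell replicates 1 and 2 it did not pass (adjusted p = 0.0819).

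Interferon-induced genes were higher in dendritic cells for 20 of 30 tested and lower for 6. Ifitm3, which blocks viral entry, read 1.27, 0.954 and 0.855 CPM across B cells and 142, 149 and 139 CPM across dendritic cells (log2 difference 7.13 ± 0.11, SE, adjusted p = 8.40e-11). Mx1 (log2 2.07), Usp18 (log2 3.56) and Oas2 (log2 2.63) rose, and Oasl1 (log2 -2.54) and Cmpk2 (log2 -1.30) fell. Of 20 immediate early genes 14 were higher and 4 lower. Fos rose from 85.98 to 335 CPM (log2 1.96), Atf3 by log2 7.83 and Nr4a1 by log2 3.30, while Klf2, a factor of resting lymphocytes, fell (log2 -3.03).

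Markers of other spleen cells that the dendritic cell samples could hold were measured beside these results. Macrophage markers were higher in dendritic cells for 15 of 16 tested, with summed levels of 53.3 to 57.1 CPM in B cells and 569 to 609.7 CPM in dendritic cells, and none was at 0. Adgre1, which encodes F4/80 and is shared with some dendritic cells, made up 265 CPM, and Trf 139 CPM, although exons of Trf overlap another gene on the same strand. The complement genes C1qa, C1qb and C1qc stood at 11.9, 7.55 and 8.24 CPM in dendritic cells, and Siglec1 at 0.883 CPM. Monocyte markers gave 11 of 14 higher, with sums of 922 to 1172 and 2095 to 2229 CPM, in which Lyz2 (log2 5.87), Ccr2 and Csf1r are shared with dendritic cells and Ly6c2 stood at 0.603 CPM. Their part in the cell type difference was not tested.

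The counts of neutrophil, T cell and natural killer markers called stand beside 38.5% higher and 38.2% lower among all tested genes. Neutrophil markers summed to 8.49 to 12.6 CPM in B cells and 48.96 to 61.99 CPM in dendritic cells, with 2 of 8 higher. Most of the dendritic cell sum was Mmp9 at 42.8 CPM, and Elane was at 0 in B cells. T cell markers summed to 255 to 380.5 and 620.3 to 622 CPM, with 5 of 20 higher and 3 lower, and the lower count was 9 without B cell replicate 2 and 8 without B cell replicates 1 and 2. Most of the dendritic cell sum was Cd4 and Cd8a, which dendritic cells carry themselves. The 3 CD3 genes and 3 T cell receptor constant genes summed to 12.5 to 47.5 CPM in B cells and 22.5 to 28.2 CPM in dendritic cells. Of the natural killer markers 5 of 13 were higher and 3 lower, 6 without B cell replicate 2, with sums of 24.8 to 40.8 and 441 to 463 CPM that were mostly Klrd1 (log2 6.15) and Klrk1 (log2 6.35) in dendritic cells, while Ncr1 was at 1.57 CPM. Red cell and platelet markers summed to 248 to 261 and 723 to 775 CPM, of which Tfrc, an iron receptor of dividing cells in general, was 670.4 CPM in dendritic cells, while Gp1bb was at 0 there and Hba-a2 at 0 in both.

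The largest differences among named genes with at least 20 CPM on the higher side fell outside the lists in part. On the dendritic cell side L3mbtl4, a chromatin reader, had 1492 counts against 0 in B cells, at least 1046-fold higher against a floor of 3 counts over the B cell libraries. Olfr111, an odorant receptor gene, had 2721 counts against 1 (a ratio of 5722 (95% counting interval 1026 to 226072)). Ryr3, an intracellular calcium release channel, read 642, 592 and 572 CPM in dendritic cells against 0.535, 0.209 and 0.277 CPM in B cells (log2 difference 10.78 ± 0.17, SE, adjusted p = 1.13e-10). Prss30, a protease, had a log2 difference of 10.76, Ppp1r14a, a phosphatase inhibitor, had 2734 counts against 3 and Gpr161 had 1416 against 1. Il31ra, with 2268 counts against 1, shares exon bases with another gene on the same strand.

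On the B cell side the list held ion channel and enzyme genes. Cacna1i, a voltage-gated calcium channel, averaged 207 CPM across B cells and 0.252 CPM across dendritic cells (log2 difference -10.40 ± 0.25, SE, adjusted p = 1.11e-09). Scn4a, a sodium channel, had a log2 difference of -9.42, Gad1, a glutamate decarboxylase, one of -9.43, and Cpm, a carboxypeptidase, one of -9.34. Zfp935 had 2809 counts in B cells and 0 in dendritic cells, at least 445-fold higher against the floor, and Nupl1 had 8059 against 1. Zfp935 and Nupl1 share exon bases with another gene on the same strand, so their values may hold or lack reads shared with that gene. In NOD mice Nupl1 had 8180 counts in B cells and 5 in dendritic cells. The mitochondrial gene mt-Co2 had 631, 255 and 0 counts across B cell replicates 1, 2 and 3 and 1, 0 and 0 across dendritic cells. Whether reads were assigned to genes alike in all libraries was not tested, so such near-absences may not be differences in RNA.

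Among the most abundant autosomal genes, Cd74 led in dendritic cells by CPM and also stood first in B cells. Per length, the dendritic cell levels were 7177 RPKM for Cd74, 2735 RPKM for Actb, 2726 RPKM for H2-Eb1 and 1933 RPKM for H2-Aa. In B cells they were 3899.99 RPKM for Cd74, 3140.2 RPKM for Ighm, 2015 RPKM for Eef1a1 and 1847 RPKM for Actb. Ptprc, the CD45 phosphatase, was at 3109 CPM in B cells and 5887 CPM in dendritic cells (log2 0.92). Class II genes thus stood among the most abundant in both cell types.

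The cell type difference was set beside the same comparison in the 6 libraries of NOD mice. In a fit of all 12 libraries 12122 of 16014 tested autosomal genes were called in NOD.Idd2 and 12237 in NOD, and 11221 were called in both, which is 92.6% of the NOD.Idd2 calls and 91.7% of the NOD calls. Of the shared calls 11210 had the same sign and 11 opposite signs. The difference of the cell type effect, NOD.Idd2 minus NOD, was tested directly and called for 17 genes (0.106%), 10 higher (0.0624%) and 7 lower (0.0437%), with 1311 genes at an unadjusted p under 0.05. The count was 7 to 11 without any 1 of the NOD.Idd2 dendritic cell libraries, NOD.Idd2 B cell replicate 1 or 2, or NOD B cell replicate 1, and 112 with DESeq2. Antibody variable segments and a provisional transcript were among the 17. Of the 17 genes 5 (Usp2, Ubash3b, Sorl1, Nxpe4 and Crtam) lie on chromosome 9, the chromosome of the Idd2 locus. That chromosome held 901 of the 15066 genes tested in the main comparison. With each of the 12 libraries left out in turn, Nxpe4 lost its call under 9 omissions, Crtam under 10 and Sorl1 under 1.

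Tnfrsf21, which encodes death receptor 6, had the smallest p, with means of 4.23 ± 0.444 CPM (SD, n = 3) in NOD B cells, 19.1 ± 0.976 in NOD.Idd2 B cells, 74.5 ± 4.80 in NOD dendritic cells and 49.7 ± 2.83 in NOD.Idd2 dendritic cells. Dendritic cells exceeded B cells by log2 4.14 in NOD and by log2 1.38 in NOD.Idd2 (difference -2.76 ± 0.11, SE, adjusted p = 1.58e-07). As a ratio, the B cell levels differed more between the strains than the dendritic cell levels, and in CPM they differed less. Nxpe4 had means of 0.219 ± 0.0908 CPM (SD, n = 3) in NOD B cells, 1.62 ± 0.177 in NOD.Idd2 B cells, 2.92 ± 0.429 in NOD dendritic cells and 83.2 ± 2.27 in NOD.Idd2 dendritic cells, and its cell type difference was log2 3.72 in NOD and 5.68 in NOD.Idd2 (adjusted p of the difference = 0.0388).

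Among B cell receptor regulators, the cell type difference of Cd72 was log2 -1.92 in NOD and -2.45 in NOD.Idd2 (adjusted p = 0.00574), and that of Fcgr2b -2.71 and -2.04 (adjusted p = 0.0232). Ubash3b, a phosphatase that limits Syk family signalling, changed sign: it was lower in dendritic cells of NOD (log2 -0.55) and higher in those of NOD.Idd2 (log2 0.74), with means of 47.6 ± 6.53 CPM (SD, n = 3) in NOD B cells, 20.003 ± 1.66 in NOD.Idd2 B cells, 32.5 ± 2.15 in NOD dendritic cells and 33.6 ± 2.62 in NOD.Idd2 dendritic cells. Among the list members that passed this test were Tnfrsf21, Cd72, Fcgr2b and Tnf, and members that did not pass are not thereby shown to differ equally in both strains. With each of the 12 libraries left out in turn, the calls of Tnfrsf21, Ubash3b and Cd72 held each time, with adjusted p up to 0.0496 for Cd72. Fcgr2b lost its call without NOD.Idd2 dendritic cell replicate 1 or 2, NOD.Idd2 B cell replicate 1 or NOD B cell replicate 1 or 2 (adjusted p up to 0.105). Nxpe4 kept it only without NOD dendritic cell replicate 1 or 2 or NOD B cell replicate 1 (adjusted p up to 0.168), and Tnf only without NOD or NOD.Idd2 dendritic cell replicate 1 (adjusted p up to 0.149).

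**Figure D5:**
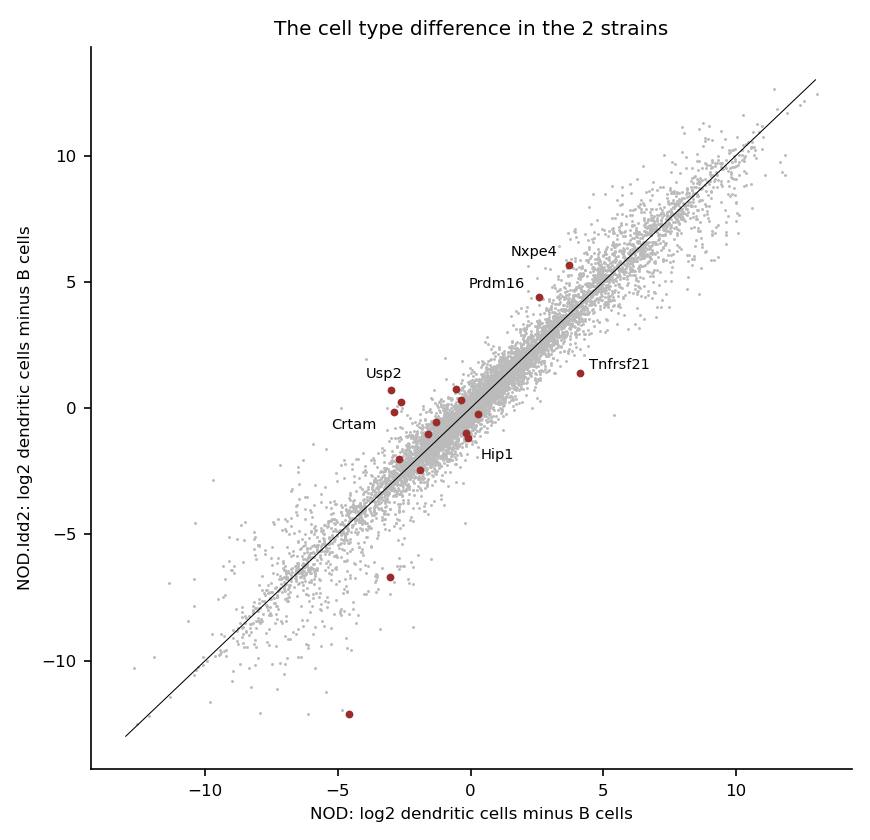
Log2 difference of dendritic cells minus B cells in NOD (x axis) and NOD.Idd2 (y axis) for the tested autosomal genes in the fit of 12 libraries, with the genes called for a difference between strains marked. Most genes lie near the diagonal, and Tnfrsf21 lies below it at 4.14 in NOD and 1.38 in NOD.Idd2.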

How the data were processed

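Poly(A)-selected RNA libraries (Trizol, KAPA HyperPrep, per the labels' protocols) were grouped by strain and cell type from their titles. The authors deposited a table of raw read counts, whole numbers per gene symbol, which was used here. Their normalized table was not used, since its values had been scaled within each cell type. The submitters' processing notes name the build GRCm38 and the aligner STAR (written version 0.12.2). How reads were counted (tool, annotation, strand, reads with several matches) is not given in the sources used here, so overlapping, antisense and near-identical genes are uncertain. No column of per-sample values was left unmapped.

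Counts were scaled with TMM over the 6 NOD.Idd2 libraries and genes kept by filterByExpr (minimum count 10, minimum total 15). The main test was the quasi-likelihood test of edgeR 4.0.16 under R 4.3.3, with Benjamini-Hochberg adjustment over the 15603 genes tested on all chromosomes and a threshold of 0.05, and glmTreat on the same fit for more than 2-fold. The difference between strains was a contrast in a fit of all 12 libraries. The scripts were tested on simulated counts with known changes in a small part of the genes. In the data 76.6% of tested genes were called, so that simulation cannot show how the scaling performs here. Adjusted p-values in the text are from edgeR unless another tool is named. SE is that of the fitted log2 difference. Where a cell type had 0 counts of a gene, 3 counts over its libraries served as the floor of a bound, and at 1 to 3 counts a ratio with a 95% exact interval is given. RPKM values used exon lengths of GENCODE on GRCm38.

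The comparison, the 43 gene lists and the members were chosen with earlier results of these data known. Genes were named by rule: the 10 largest differences in each direction at 20 CPM or more, the 10 highest levels in each cell type, up to 4 members of each list by level and those against its direction, all members of 4 lists of adaptors, factors and kinases, and the 8 smallest p-values of the difference between strains. Not every gene so named is printed, and other list members in the text were chosen after their values were seen. Alternatives were DESeq2 1.42.0, limma-voom (limma 3.58.1), RLE factors, library totals, antigen receptor genes left out, other count filters, autosomal genes only, all 12 libraries, a block for the replicate number, and leaving out each library in turn. Omitting B cell replicates 1 and 2 together, and a restriction to protein-coding genes without exon overlap on the same strand or a shift in replicate 3, were added after seeing the data. Some genes are not reported here.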

Additional observations from a re-analysis of the deposited data

Results flagged for a closer look

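The cell type effect, dendritic cells minus B cells on the log2 scale, differed between NOD.Idd2 and NOD in edgeR's test of that difference for the following named genes, each given as NOD.Idd2 minus NOD. The difference was -2.76 for Tnfrsf21, 3.72 for Usp2, 1.30 for Ubash3b, -1.09 for Hip1 and -0.53 for Cd72, and the calls of these 5 held without any 1 library. It was 0.60 for Sorl1, whose call was lost without NOD.Idd2 dendritic cell replicate 2 (adjusted p = 0.0703). It was 0.67 for Fcgr2b, which lost its call under 5 of the 12 omissions. Nxpe4 at 1.96 lost it under 9, Tnf at -0.84, Crtam at 2.71, Desi1 at 0.74 and D16Ertd472e at 0.67 under 10, and Prdm16 at 1.82 under 11.

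Usp2, a ubiquitin protease, had means of 2.90 ± 0.225 CPM (SD, n = 3) in NOD B cells, 0.228 ± 0.0759 in NOD.Idd2 B cells, 0.354 ± 0.0128 in NOD dendritic cells and 0.369 ± 0.0293 in NOD.Idd2 dendritic cells, with the NOD B cells apart from the other groups. Crtam, a receptor of activated lymphocytes, had means of 7.61 ± 1.05 CPM (SD, n = 3) in NOD B cells, 0.559 ± 0.221 in NOD.Idd2 B cells, 1.03 ± 0.249 in NOD dendritic cells and 0.492 ± 0.115 in NOD.Idd2 dendritic cells. Hip1, a clathrin adaptor, had means of 77.4 ± 2.71 CPM (SD, n = 3) in NOD B cells, 76.2 ± 4.16 in NOD.Idd2 B cells, 71.8 ± 11.3 in NOD dendritic cells and 33.1 ± 1.26 in NOD.Idd2 dendritic cells, with the NOD.Idd2 dendritic cells apart from the other groups. Desi1 had means of 14.98 ± 0.378 CPM (SD, n = 3) in NOD B cells, 41.7 ± 2.31 in NOD.Idd2 B cells, 6.12 ± 0.865 in NOD dendritic cells and 28.6 ± 0.866 in NOD.Idd2 dendritic cells, and both NOD.Idd2 groups were the higher ones. Prdm16, a zinc finger factor, had means of 0.671 ± 0.107 CPM (SD, n = 3) in NOD B cells, 0.428 ± 0.0533 in NOD.Idd2 B cells, 4.08 ± 0.894 in NOD dendritic cells and 9.24 ± 0.678 in NOD.Idd2 dendritic cells.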

How the results depend on the processing

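The count of 11547 called genes was 10258 to 12855 under the other tests, scalings, filters and fits and 10854 to 12138 with 1 library left out, with 11313 without B cell replicates 1 and 2, and no scaling moved the median log2 of all genes by more than 0.0549. It was 4958 at a minimum of 2-fold. The 1945 of 15066 genes lower at 2-fold were 1128 of 10755 among protein-coding genes without exon overlap on the same strand or a shift in replicate 3. That smaller set of 10755 tested genes held 8785 called in either direction. The 17 genes whose cell type effect differed between strains (10 higher, 7 lower) were 112 with DESeq2 (54 and 58) and 32 without a count filter (19 and 13), and with 1 library left out they were 7 to 19 in all, 3 to 11 higher and 4 to 10 lower; the cause was not tested. Deviations from the group mean in same-numbered libraries of the cell types had correlations of -0.0573, 0.0135 and 0.0134. Different cell types need not deviate in the same genes, so these values cannot decide whether the numbers pair samples. With the replicate block 11215 genes were called, and 53 for the difference between strains (19 higher, 34 lower) with the block within each cell type. Without B cell replicates 1 and 2 the log2 difference was 0.28 for Actg1 and 0.30 for Pcna, in place of lower values in dendritic cells. The difference of Pcna was -0.34 to -0.04 with 1 library left out. Among uncalled genes near 0, Canx was at -0.023 to 0.073 and Ly86 at -0.037 to 0.039 with 1 library left out, and Ly86 at -0.017 by library totals, -0.036 without B cell replicates 1 and 2 and -0.015 among the restricted protein-coding genes. Dendritic cell replicate 3, at 8663421 counts, limits low genes most.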
